A study of Mus musculus with 4 samples.

Results

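The clustered protocadherin genes were taken as the protein-coding genes of the GENCODE M21 annotation on mouse chromosome 18 (mm10) whose symbols begin with Pcdha, Pcdhb or Pcdhg. The rule found 57 genes among 21938 protein-coding genes on chromosomes 1 to 19, X and Y: 14 α, 22 β and 21 γ genes. All lie on the plus strand between chr18:36930184-37841873, and peaks were read across this stretch with 100 kb on each side. Open chromatin was measured by ATAC-seq, in which a transposase cuts accessible DNA, in 4 untreated mouse cell lines with 1 library each. Lines SMC 1 and SMC 2 were NCAM hi CD44 lo/- cells growing in suspension, and lines non-SMC 1 and non-SMC 2 were NCAM lo CD44 hi cells growing attached. All 4 came from lung tumors of Rb1 L/L, Trp53 L/L mice on a mixed background of C57Bl/6, Balb-c and S129, in which Cre delivered by an adenovirus under the CMV promoter removed both genes, and all were kept in the same medium with serum. Each line is a single culture, so the 2 lines of a type give the only measure of spread. An exact permutation test of 2 against 2 lines cannot go below p = 0.333, so no test was made between the types, and differences are set against the SD between lines of a type.

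Clustered protocadherins are cell surface adhesion proteins that neurons use to tell their own branches from those of other cells. The variable exons stand in a row, each with its own promoter. In the α and γ families each is spliced to constant exons shared by the whole family, whereas each β gene is a single coding exon. Neurons choose a few of these promoters at random, and the choice involves the insulator protein CTCF, cohesin and distant enhancers. The C-type genes (*Pcdhac1*, *Pcdhac2*, *Pcdhgc3*, *Pcdhgc4* and *Pcdhgc5*), which lie at the 3′ ends of the α and γ rows, are instead used by many neurons in a regular way. Outside the nervous system much of the cluster is kept silent, with SMCHD1 and SETDB1 among the proteins known to take part.

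The lists held 91057 (SMC 1), 153954 (SMC 2), 115837 (non-SMC 1) and 128710 (non-SMC 2) peaks, and their genome-wide background was between 0.456 and 1.54 reads. Peak height is given below as the reads stacked at the summit and as the fold of these reads over the background of the library. At this background the weakest peak a list could hold rested on 3 reads in SMC 1 and non-SMC 2 and on 5 reads in SMC 2 and non-SMC 1, that is 6.58-fold (SMC 1), 3.25-fold (SMC 2), 3.37-fold (non-SMC 1) and 4.70-fold (non-SMC 2). Where the local background was above the genome-wide one, more reads were needed, so these levels are the lowest limits, and a missing peak means only that accessibility was not detectable. The paper gives total reads for each type but not for each library. The depth implied by the background was 8.36 M reads in SMC 1 and 29.4 M in SMC 2. It was 23.5 M in non-SMC 1 and 10.4 M in non-SMC 2. SMC 1 and non-SMC 2 were thus the shallower lines of their types, and lines differed in depth within a type as well as between types. Heights are therefore read as ranks within a list (the percentile of fold enrichment) and are not compared between lines. Marker promoters were checked first, and a feature is called SMC-only here where both SMC lists and no non-SMC list hold a peak at it, and non-SMC-only in the reverse case. *Insm1* and *Chga* were SMC-only, *Axl* was non-SMC-only, and *Ncam1*, *Syp* and *Vim* had a peak in all 4 lines. *Cd44*, *Wwtr1* and *Ccn1* had peaks in both non-SMC lines and in SMC 2. Among 6 markers of other cell types, *Ptprc* and *Pdgfra* had no peak, *Cd68* and *Pecam1* had one in both non-SMC lines, *Col1a1* in both non-SMC lines and SMC 1, and *Cdh5* in SMC 2 alone. Their part in the values below was not tested.

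Most clustered protocadherin promoters had no detectable peak in these cells. A promoter was scored as open where a peak overlapped the 2 kb centred on the annotated 5′ end, and 33 of the 57 genes had no peak in any of the 4 lines. This is 57.9% of the members, beside 28.4% of all protein-coding genes. The share of members with a promoter peak was 14.0% in SMC 1, 15.8% in SMC 2, 19.3% in non-SMC 1 and 12.3% in non-SMC 2. In the same lines 54.7%, 60.7%, 56.4% and 55.2% of all protein-coding genes had one, and on chromosome 18 outside the cluster between 64.5% and 71.1% did. SMC lines averaged 14.9% ± 1.24 (SD, n = 2). Non-SMC lines averaged 15.8% ± 4.96 (SD, n = 2). Their difference, -0.88 percentage points, fell within the 3.62 points of SD between lines. This depended on the peaks and the window counted. With a -log10 q of 5 or more required, the shares were 7.02% and 8.77% in the SMC lines and 5.26% and 3.51% in the non-SMC lines. This is a difference of 3.51 points against an SD between lines of 1.24 points. Of all protein-coding genes, 26.0% and 38.1% had such a peak in the SMC lines and 44.7% and 32.7% in the non-SMC lines. In a window of 6 kb the shares of members were 26.3% and 31.6% against 38.6% and 36.8%. This is a difference of -8.77 points against an SD of 2.77 points. The share of all protein-coding genes in this wider window is not given here, so the split was not set against that of the genome. The direction of the difference between the types is thus not settled by these data. Which genes were open differed from line to line.

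**Figure D1:**
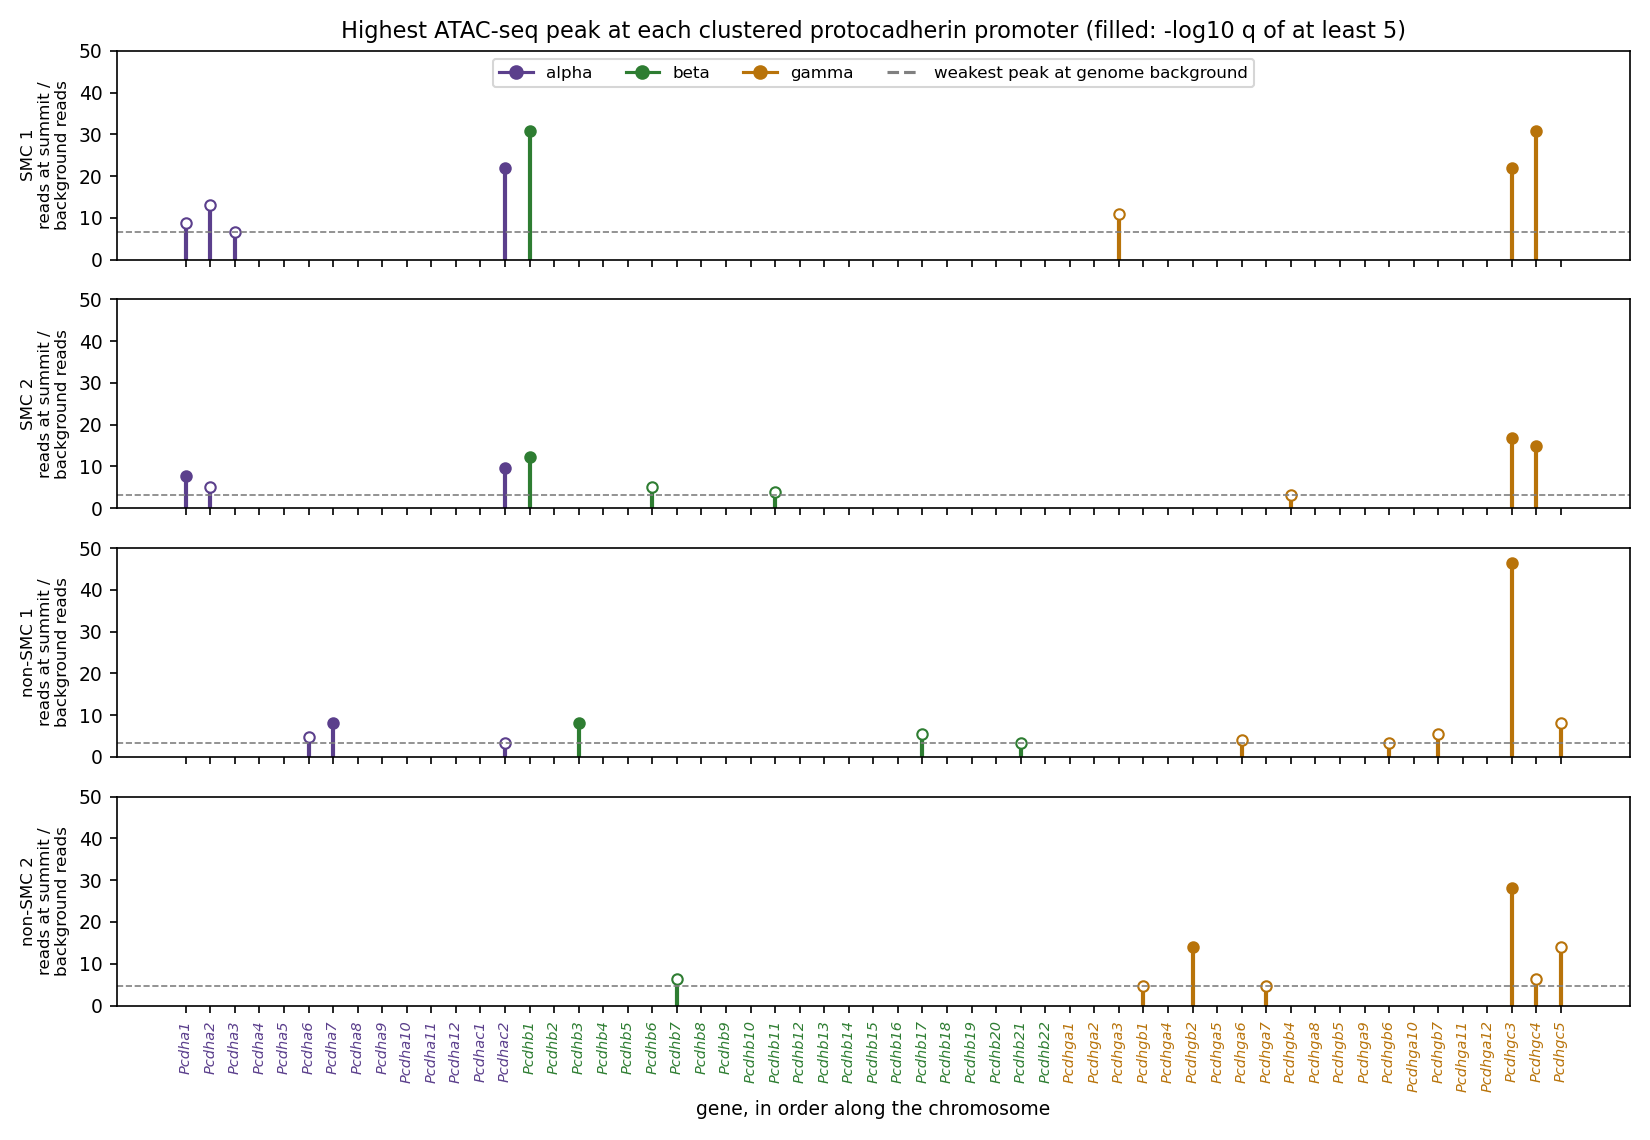
Height of the highest peak within 1 kb of the 5′ end of each of the 57 genes (x axis, in chromosome order), as reads at the summit over the background reads of the library (y axis), in 1 panel per line. Filled circles mark peaks whose -log10 q reaches 5, and the dashed line is the weakest peak a list could hold at its background. *Pcdhgc3* is the only gene marked in every panel, *Pcdhac2*, *Pcdhb1* and *Pcdhgc4* have filled circles in both SMC panels only, and long rows of genes are empty.

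The genes that were open in several lines lay at the ends of the families. Of the 5 C-type genes, 3 had a promoter peak in each of the 4 lines, which is 60%, although not the same 3. This is near the 54.7% to 60.7% of all protein-coding genes, whereas 7.69% to 15.4% of the other members had one. Of the 52 other genes, 32 had no peak in any line, 17 had a peak in a single line, and 3 (*Pcdha1*, *Pcdha2* and *Pcdhb1*) had peaks in 2 lines. The first gene of the γ row, *Pcdhga1*, the last of the β row, *Pcdhb22*, and the C-type gene *Pcdhac1* had none in any line.

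*Pcdhgc3*, a C-type γ gene, was the only member with a promoter peak in all 4 lines, 1 of 57 genes or 1.75%, beside 42.7% of all protein-coding genes. The reads at its summit were 10 in SMC 1, 26 in SMC 2, 69 in non-SMC 1 and 18 in non-SMC 2. These are 21.9-fold, 16.9-fold, 46.4-fold and 28.2-fold over the background of each library, and they placed the peak at the 90.0th, 95.6th, 96.4th and 93.2nd percentile of fold enrichment in the lists. The summits lay 99, 54, 42 and 55 bases before the annotated 5′ end (chr18:37805985-37807187, merged over lines), in sequence annotated as introns of the upstream γ genes. The promoter was thus among the higher peaks of every list, and it was the strongest member peak in SMC 2 and both non-SMC lines but not in SMC 1.

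*Pcdhb1*, the first β gene, had a promoter peak high in the lists in both SMC lines and none in the non-SMC lines. The summit held 14 reads in SMC 1 and 19 in SMC 2, 30.7-fold and 12.4-fold over background, at the 96.8th and 94.5th percentile. The summits lay 16 and 22 bases after the 5′ end, in the 5′ UTR (chr18:37264757-37265272). Whether detection limits played a part in the missing non-SMC peaks was not tested. When reads were thinned to a common depth the *Pcdhb1* peak was lost from SMC 2, and the SMC-only members were *Pcdha1* and *Pcdhgc4*. The losses in SMC 2 did not follow peak height. It also lost the *Pcdhgc3* peak of 26 reads and kept those of *Pcdha2* and *Pcdhb6*, with 8 reads each before thinning. The thinned lists therefore do not rank these members. *Pcdha1* and *Pcdha2*, the first α genes, followed the same pattern with lower peaks. *Pcdha1* had 4 reads in SMC 1 and 12 in SMC 2, 8.77-fold and 7.80-fold, with summits 200 and 326 bases into the gene. *Pcdha2* had 6 reads in SMC 1 and 8 in SMC 2, 13.2-fold and 5.20-fold, with summits 13 and 134 bases into the gene. These 3 genes were the only SMC-only members, 5.26% of the members beside 3.17% of all protein-coding genes.

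*Pcdhac2*, the last α gene, and *Pcdhgc4*, both C-type, had strong peaks in the SMC lines and a weak one in a single non-SMC line. *Pcdhac2* had 10 reads in SMC 1 and 15 in SMC 2, 21.9-fold and 9.75-fold, at the 89.7th and 88.1st percentile. In non-SMC 1 its peak rested on 5 reads, the fewest that list holds, and had a percentile of 4.02, and non-SMC 2 had no peak there. *Pcdhgc4* had 14 reads in SMC 1 and 23 in SMC 2, 30.7-fold and 15.0-fold, at the 91.4th and 92.1st percentile, with summits 329 and 499 bases before the 5′ end. The non-SMC 2 peak counted for *Pcdhgc4* had 4 reads and a summit 1051 bases before the 5′ end, apart from the SMC peaks, and non-SMC 1 had none. When weaker peaks were dropped and a -log10 q of 5 or more was required, the SMC-only members were *Pcdhac2*, *Pcdhb1* and *Pcdhgc4*, and *Pcdhgc3* was still the only one in all 4 lines.

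*Pcdhgc5*, the last γ gene, showed the opposite pattern and was the only non-SMC-only member, 1.75% beside 2.19% of all protein-coding genes. It had 12 reads in non-SMC 1 and 9 in non-SMC 2, 8.08-fold and 14.1-fold, with summits 76 and 93 bases before the 5′ end (chr18:37819369-37819725). The peaks were moderate, at the 17.9th and 67.4th percentile of their lists, and neither reached a -log10 q of 5. The local background around this gene was above the genome-wide one. At a peak of 5 reads in SMC 1, located 885 kb past the 5′ end of *Pcdha1*, between *Pcdhgc4* and *Pcdhgc5*, it was 2.68 times as high, and that peak stood at 10.96-fold. SMC 2 listed a peak of 5.85-fold 883.5 kb past the 5′ end of *Pcdha1*, where the background was 1.68 times the genome-wide one. The part of the local background in the missing SMC peaks at *Pcdhgc5* was not tested. The C-type γ genes *Pcdhgc3*, *Pcdhgc4* and *Pcdhgc5* are neighbours, yet they showed 3 patterns: a peak in every line, in both SMC lines and non-SMC 2, and in the non-SMC lines alone.

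The other members open anywhere were open in a single line. These were 17 of the 24 members with any promoter peak, or 70.8%, beside 14.8% of the 15717 protein-coding genes with a peak in any line. Their peaks rested on 3 to 12 reads with a median of 6, and 3 of them (*Pcdha7* and *Pcdhb3* in non-SMC 1, *Pcdhgb2* in non-SMC 2) reached a -log10 q of 5. SMC 1 alone had peaks at 2 members, SMC 2 at 3, non-SMC 1 at 8 and non-SMC 2 at 4. The gene differed from line to line also within a type: *Pcdhb3*, *Pcdhb17* and *Pcdhb21* were open in non-SMC 1, and *Pcdhb7* in non-SMC 2. The members are similar in sequence, how reads with several matches were handled was not stated, and its part in these peaks was not tested.

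By family, the α genes had promoter peaks at 4 (SMC 1), 3 (SMC 2), 3 (non-SMC 1) and 0 (non-SMC 2) of 14 genes. The β genes had them at 1, 3, 3 and 1 of 22 genes in the same order of lines. The γ genes had them at 3, 3, 5 and 6 of 21 genes. For the γ genes the mean was 14.3% in SMC and 26.2% in non-SMC lines, and both non-SMC lines were above both SMC lines. The difference of -11.9 points, against an SD between lines of 2.38 points, rests on peaks of which most are weak: with a -log10 q of 5 or more required, the γ counts were 2, 2, 1 and 2. For the α genes the difference was 14.3 points against an SD between lines of 11.3 points, and for the β genes the means were the same.

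**Figure D2:**
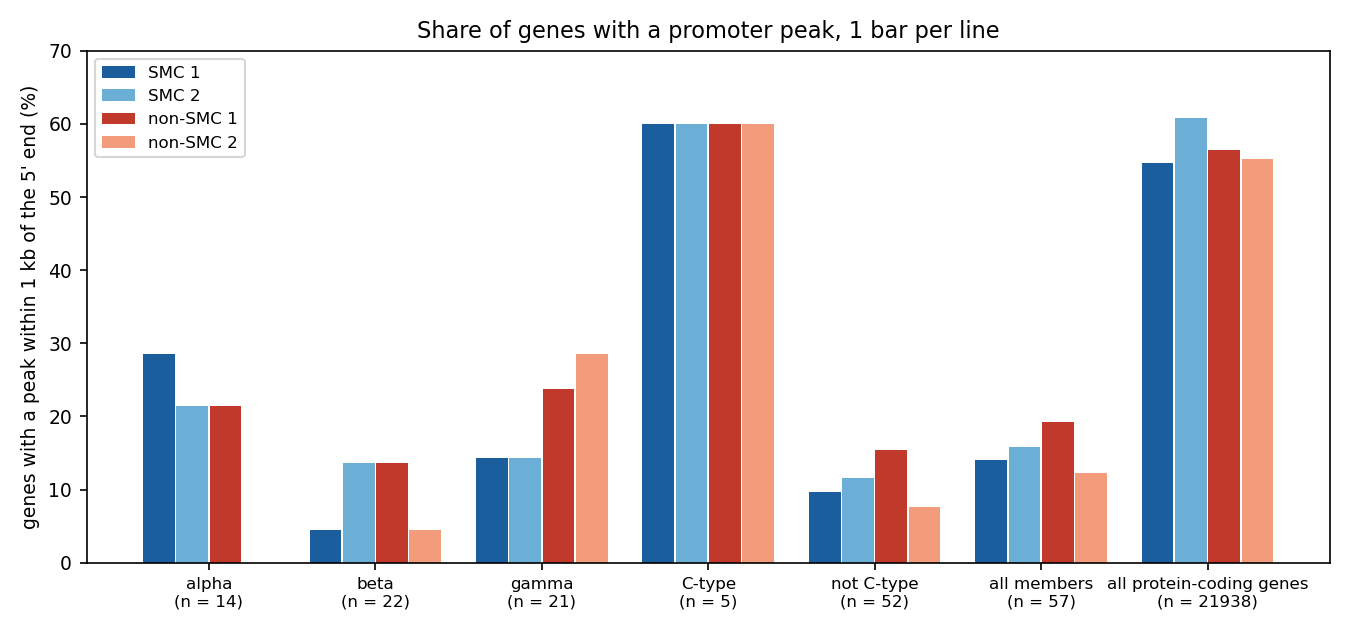
Percent of genes with a peak within 1 kb of the 5′ end (y axis) for each family, for C-type and other members, for all 57 members and for all 21938 protein-coding genes, with 1 bar per line and no error bars because each bar is a single library. Members stand between 12.3% and 19.3% and all genes between 54.7% and 60.7%, and the C-type genes are at 60% in every line.

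Peaks were also counted along the whole stretch. With the flanks, the cluster held 37 peaks in SMC 1, 50 in SMC 2, 53 in non-SMC 1 and 55 in non-SMC 2, a mean of 43.5 ± 9.19 (SD, n = 2) for SMC lines against 54.0 ± 1.41 (SD, n = 2) for non-SMC lines. The log2 ratio of -0.31 was beyond the SD between lines (0.22 on the log2 scale). With the same number of peaks taken from every list it turned to 0.043. Per 100 kb the genes without flanks held 3.51, 4.28, 4.06 and 4.28 peaks in SMC 1, SMC 2, non-SMC 1 and non-SMC 2, beside 3.34, 5.65, 4.25 and 4.72 over the genome. The promoters without a peak thus stood in a stretch whose density of listed peaks, weak ones included, was near that of the genome. The share of these peaks with a -log10 q of 5 or more was not near it in every line. It was 21.9% (SMC 1), 23.1% (SMC 2), 21.6% (non-SMC 1) and 7.69% (non-SMC 2). Over the genome it was 14.3%, 17.1%, 38.0% and 19.5% in the same order. The density of all listed peaks differed within the stretch. It was 1.54 to 3.47 peaks per 100 kb over the β genes and 6.11 to 10.6 over the γ genes. The median background at the peaks of the genes without flanks was between 1 and 1.23 times the genome-wide background of each library.

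**Figure D3:**
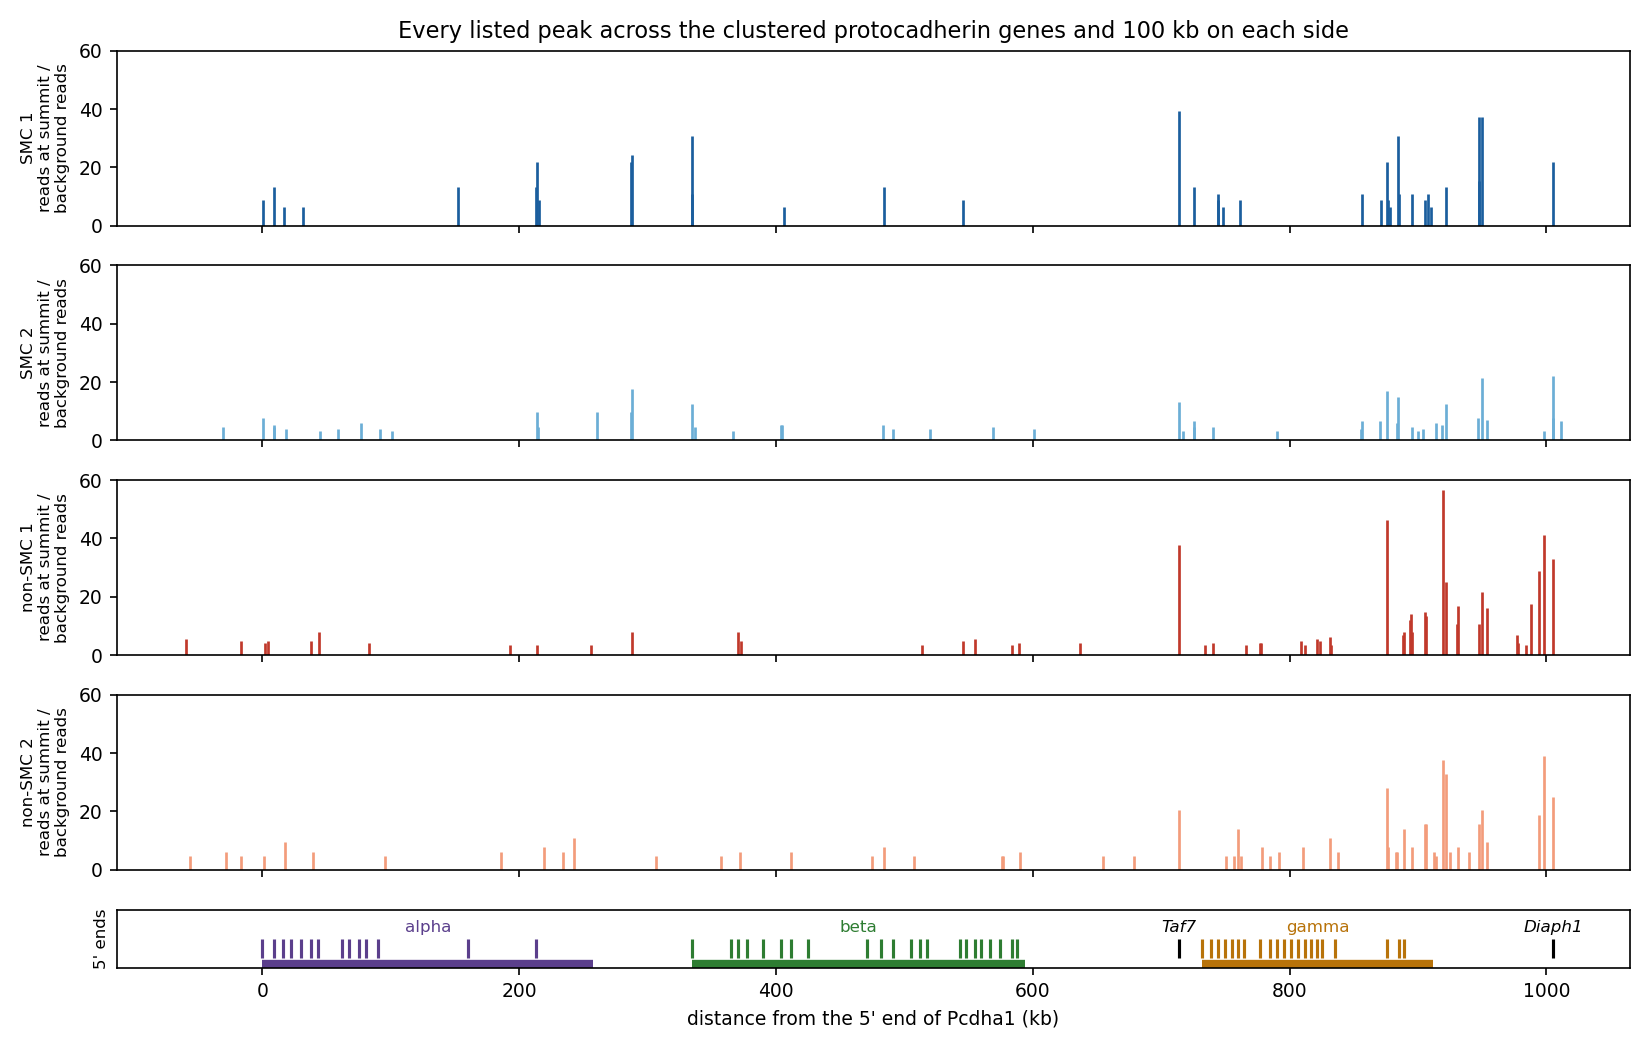
Every listed peak (vertical lines) by distance from the 5′ end of *Pcdha1* in kb (x axis) and by reads at the summit over the background reads of the library (y axis), in 1 panel per line, with the 5′ ends of the genes below. The SMC panels have peaks among their taller ones at the 3′ end of the α genes and before the β genes. The tallest peak lies past the end of the γ genes in SMC 2 and in both non-SMC panels, and at *Taf7* in SMC 1.

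The 4 lists merged into 141 regions across the cluster with its flanks. Of these, 110 regions (78.0%) came from a single line, beside 76.9% of the 357570 regions of the genome. The single-line regions had a median of 5 reads and 7 of 110 reached a -log10 q of 5, whereas 19 of the 31 regions found in 2 or more lines did. Coding exons held 47 of the 110 single-line regions (42.7%) and 4 of the 31 others (12.9%). The matching shares over the genome are not given here. SMC-only regions numbered 9 (6.38% of 141, beside 4.37% of all regions), and non-SMC-only regions numbered 8 (5.67%, beside 7.33%). Those in all 4 lines numbered 6 (4.26%, beside 3.81%). All 9 SMC-only regions lay between the first and the last member, whereas 4 of the 8 non-SMC-only regions lay in the flanks. Peaks of the 2 SMC lines overlapped with a Jaccard index (shared bases over all covered bases) of 0.332 within the cluster and 0.187 over the genome. For the 2 non-SMC lines it was 0.221 and 0.268, and for lines of different types between 0.0940 and 0.130 within the cluster.

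The interval between the α and β genes held SMC peaks high in the lists that were not at a promoter. HS5-1, a known enhancer of the α genes, lies between the α and β genes. No file used here gives its position, and it was not assigned to a peak. A region 47586 bases before *Pcdhb1* (chr18:37217207-37217573) had 10 reads in SMC 1 and 15 in SMC 2, 21.9-fold and 9.75-fold, and no peak in a non-SMC line. Its neighbour 46591 bases before *Pcdhb1* (chr18:37217718-37218451) had 11 reads in SMC 1, 27 in SMC 2 and 12 in non-SMC 1, at the 92.7th, 98.3rd and 67.7th percentile, and none in non-SMC 2. In SMC 2 it was the peak with the highest fold enrichment of the whole stretch. SMC 2 alone had another peak in this interval, 46905 bases past the 5′ end of *Pcdhac2*, with 15 reads and a -log10 q of 7.88. The SMC lines thus had strong peaks at *Pcdhac2*, in the interval and at *Pcdhb1*, and the non-SMC lines had 1 peak with a -log10 q of 5 or more over the same stretch.

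**Figure D4:**
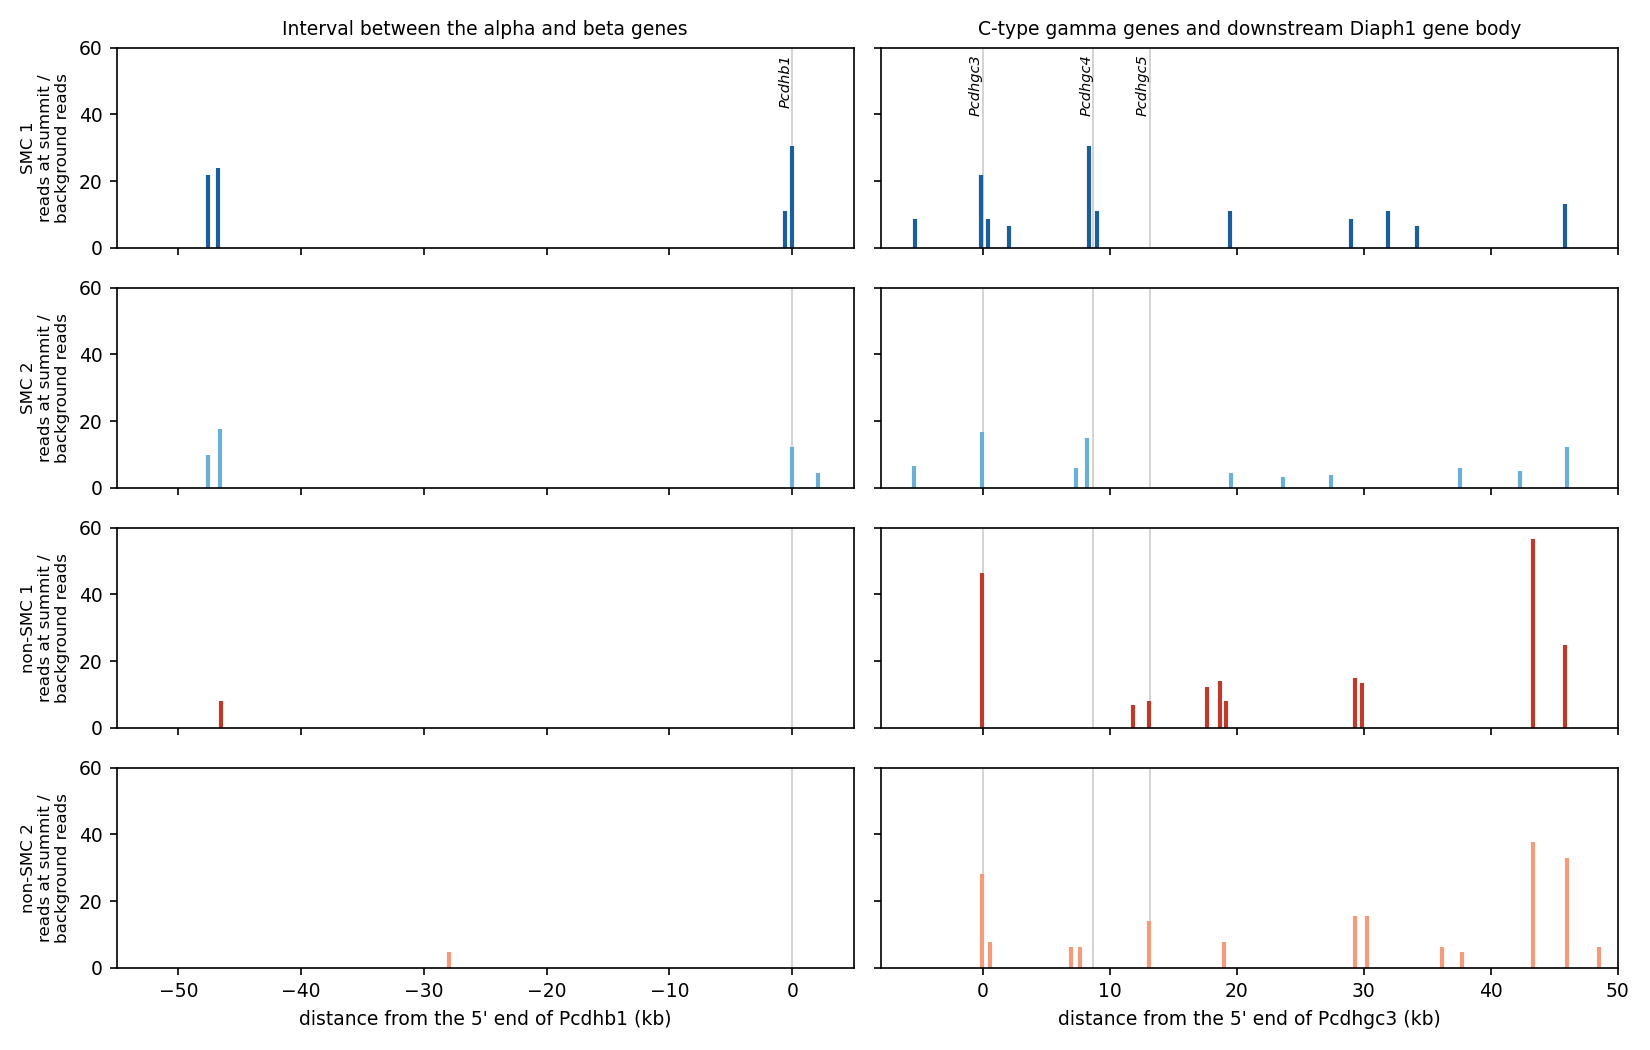
Peaks by distance in kb from the 5′ end of *Pcdhb1* (left, the interval between the α and β genes) and of *Pcdhgc3* (right, the C-type γ genes and the start of the downstream stretch), with reads at the summit over the background reads of the library on the y axis and 1 row per line. On the left the SMC peaks named in the text stand at the 90.4th to 98.3rd percentile of their lists. No non-SMC peak there is above the 67.7th percentile of its list. On the right the tallest peak of the non-SMC 1 panel, at 56.5-fold, is at the 94.3rd percentile of its list.

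Past the last γ gene the pattern turned. Most of the downstream 100 kb lies in *Diaph1*, which encodes a formin that nucleates actin filaments and is read from the opposite strand. The 100 kb held 5 and 10 peaks in the SMC lines and 14 and 13 in the non-SMC lines. A region 30158 bases past the 5′ end of *Pcdhgc5* (chr18:37849350-37850220) had 84 reads in non-SMC 1 and 24 in non-SMC 2, 56.5-fold and 37.6-fold, and no peak in an SMC line. A region in the same gene body, 7518 bases past the 5′ end of *Diaph1* (chr18:37927633-37928264), had 61 and 25 reads in the non-SMC lines and 5 reads in SMC 2. Between *Pcdhgc5* and the end of the γ genes, a region 17103 bases past the 5′ end of *Pcdhgc5* had 20 and 10 reads in the non-SMC lines and none in the SMC lines. Other regions of the gene body were shared: the one 60807 bases past the 5′ end of *Pcdhgc5* (chr18:37880016-37880496) had 17, 33, 32 and 13 reads in SMC 1, SMC 2, non-SMC 1 and non-SMC 2. In both SMC lines this was more than at any peak between the α and β genes. The promoter of *Diaph1* was open in all 4 lines with 10, 34, 49 and 16 reads.

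Genes inside the cluster that are no protocadherins showed that a promoter there can be open in every line. *Taf7*, an intronless gene for a subunit of the general transcription factor TFIID between the β and γ genes, had 18 (SMC 1), 20 (SMC 2), 56 (non-SMC 1) and 13 (non-SMC 2) reads at its promoter. In SMC 1 and non-SMC 1 this was the peak with the highest fold enrichment of the whole stretch. *Slc25a2*, the neighbouring mitochondrial carrier gene, had no peak, and of 3 predicted gene models that start within the α genes, *Gm42416* had none, *Gm37013* had 4 reads in non-SMC 2 and *Gm37388* had 5 reads in SMC 2. Protocadherins elsewhere in the genome, which do not have this arrangement of exons, differed from the clustered genes: of 12, 10 had a promoter peak in SMC 1 and in SMC 2, 8 in non-SMC 1 and 7 in non-SMC 2. *Pcdh1*, *Pcdh7*, *Pcdh9*, *Pcdh10*, *Pcdh17* and *Pcdh19* were open in all 4 lines, and *Pcdh8* and *Pcdh15* were SMC-only (16.7%, beside 3.17% of all protein-coding genes). Among 15 genes for factors known to act on the cluster, 11 were open in all 4 lines (73.3%, beside 42.7% of all protein-coding genes), among them *Ctcf*, the cohesin genes *Rad21*, *Smc1a* and *Smc3*, and the silencing factors *Smchd1* and *Setdb1*. *Stag1* had no promoter peak, and no gene of the list split by type. Among 10 genes for proteins that act with protocadherins inside the cell, such as the kinases *Ptk2* and *Fyn* and the actin regulator *Wasf1*, 9 were open in all 4 lines (90%, beside the same 42.7%).

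The promoters of the members shared sequence features. In the 300 bases from 250 before to 50 after the 5′ end, their median GC content was 39.7%, beside 55% for all protein-coding genes, while the median ratio of observed to expected CpG was about the same, 0.521 beside 0.524. *Pcdhgc3*, the gene open in every line, had a GC content of 62% and a CpG ratio of 0.778, near the medians of 61% and 0.784 for all genes open in all 4 lines. The letters CGCT, the core of an element known from these promoters, stood on either strand in 55 of 57 members (96.5%), beside 67.1% of all genes, and only *Pcdhb22* and *Pcdhga12* lacked them. No member had a match to the 12-letter CTCF consensus in this window, beside 0.556% of all genes, which says only that these exact letters are not there. A shorter core of 7 fixed letters of the same consensus, which every consensus match also holds and which was chosen after the full consensus was searched, matched 4 of 57 members (7.02%), beside 9.41% of all genes. The 4 were *Pcdha4*, *Pcdhac1*, *Pcdhb1* and *Pcdhb15*. In the 1 kb centred on the 5′ end the order turned, and 22 of 57 members (38.6%) held this core, beside 25.0% of all genes.

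Within the variable exons the CTCF consensus stood at fixed distances that differed by family. This window was also chosen after the promoters were searched. In the α family 6 of 14 genes had a match, all between 543 and 587 bases past the 5′ end. In the β family 13 of 22 had a match between 2277 and 2816 bases past the 5′ end, and no γ gene had a match within 3000 bases. The shorter core did match in the γ family, in 8 of 21 genes (38.1%) within the first 500 bases past the 5′ end, beside 14.9% of all genes. Over all protein-coding genes, 0.301% had a match in the 500 bases that hold the α matches and 0.470% in the bin from 2000 to 2500 bases, in which 50% of the β genes had one. The members are copies of each other, so these matches are not independent of one another. Few lay under a peak: 2 of the 6 α matches (*Pcdha6* and *Pcdha7*, both in non-SMC 1) and 2 of the 13 β matches (*Pcdhb3* in non-SMC 1 and *Pcdhb10* in non-SMC 2). Counted by regions, 5 of the 141 regions of the stretch held the consensus within 100 bases of the summit (3.55%, beside 0.830% of all regions), and 4 of these were in coding exons of members. The AP-1 motif, TGACTCA or TGAGTCA, stood within 100 bases of the summit in 3 of the 8 non-SMC-only regions (37.5%, beside 46.6% of all such regions of the genome) and in none of the 9 SMC-only regions, beside 4.14%. All 3 lay in the downstream stretch within *Diaph1*.

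**Figure D5:**
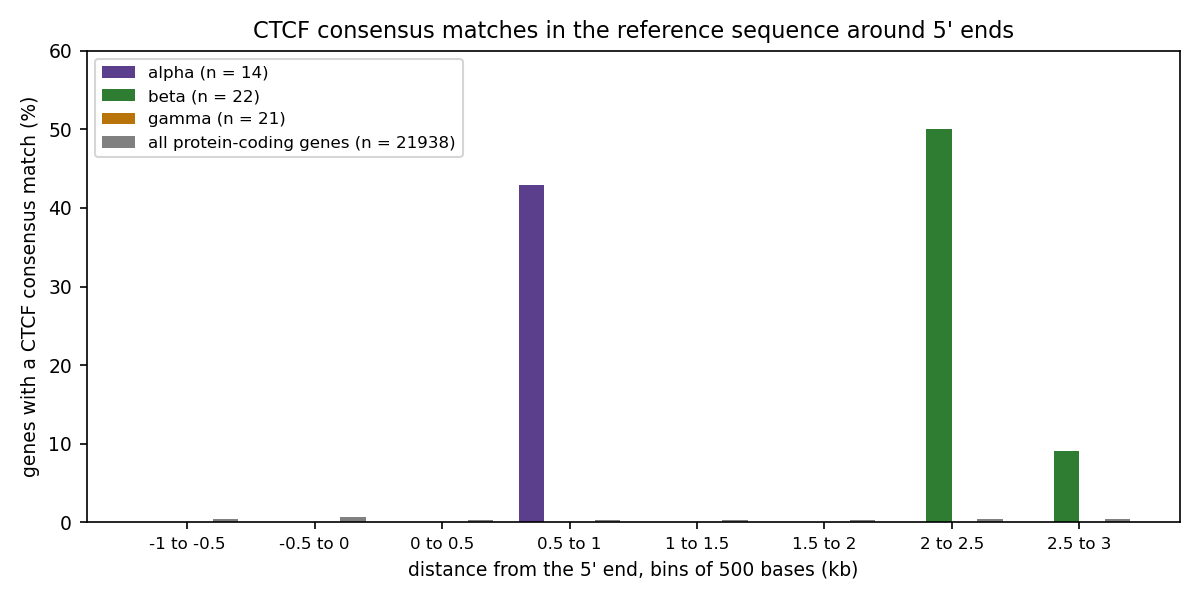
Percent of genes with a CTCF consensus match in the reference sequence (y axis) in bins of 500 bases by distance from the 5′ end in kb (x axis, negative before the gene), for the α, β and γ genes and all protein-coding genes. The α genes rise to 42.9% in the bin from 500 to 1000 bases, the β genes to 50% in the bin from 2000 to 2500 bases, and the γ genes stay at 0.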

How the data were processed

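ATAC-seq was done on 4 libraries, 1 per line. Per the study's methods the authors mapped paired-end reads to mm10 with Bowtie2 2.3.4 and called peaks per library with MACS2 2.1.1 after samtools and sambamba, without stated settings. The authors deposited for each peak a fold enrichment (a ratio of the pileup to the local background), the -log10 of p and of q, and a score that was not used. These were neither pooled nor scaled between libraries.

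Peaks outside chromosomes 1 to 19, X and Y (61 to 85 per list) were left out. Reads and background at each summit were recovered from the ratio and p, which failed for 3 to 5 peaks per list. On 16849 simulated peaks 100% were recovered within 1%, and overlaps were checked on 5000 shuffled peaks against bedtools 2.31.1 with 100% equal. Genes came from GENCODE M21 and sequence from GRCm38.p6, the assembly of mm10. Overlap needed 1 base. The annotation gives the symbol *Pcdha11* to 2 genes, and 1 of them was called *Pcdha10* after RefSeq. Scripts used Python 3.11.15, numpy 2.4.6 and scipy 1.17.1.

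Named were the C-type genes, the first and last gene of each family, members split by type or open in all 4 lines, and members nearest to the 5 highest peaks of each library. Other members named under single-line peaks, families and motifs were chosen after their values were seen. Members and lists were chosen with earlier results of these data known. Alternatives were stricter or equal numbers of peaks, thinned reads, other windows and overlaps, no flanks, means within pairs and each library left out. The labels number the lines 1 and 2 within each type and name no shared animal, so lines with the same number were not taken as pairs. No test was made, and sequence of this chromosome is not printed here.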

Additional observations from a re-analysis of the deposited data

Results flagged for a closer look

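The share of members with a promoter peak went in opposite directions in the lines numbered 1 and in those numbered 2, which share only a number. It was lower in SMC 1 than in non-SMC 1, with a difference of -5.26 points, and higher in SMC 2 than in non-SMC 2, with a difference of 3.51 points. With 1 library per line the difference between these values was not tested.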

How the results depend on the processing

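Depth limits these results, since weak peaks rest on 3 to 5 reads, and many counts are small, so that adding or losing 1 gene moves them. Requiring a -log10 q of 5 or more changed the difference in the share of open members (SMC minus non-SMC) to 3.51 points, left 0 non-SMC-only members, and left 4 SMC-only and 3 non-SMC-only regions. With the same number of peaks from every list the difference was 3.51 points, 5 members were SMC-only (*Pcdha1*, *Pcdha2*, *Pcdhac2*, *Pcdhb1* and *Pcdhgc4*), and the log2 ratio of peaks across the cluster turned to 0.043. Thinning every library to 50% of the implied depth of the shallowest left 0 members open in all 4 lines and 4 SMC-only regions, and *Pcdha2* and *Pcdhb1* were no longer SMC-only. The losses of members in SMC 2 did not follow peak height. A 6 kb promoter window gave a difference of -8.77 points, 7 non-SMC-only members and 2 members open in all 4 lines. Asking for a peak over the 5′ end itself gave 3.51 points. Without the flanks 4 regions were non-SMC-only. The shorter CTCF core matched 7.02% of the members and was chosen after seeing the data. In each case the cause was not tested, apart from the smaller number of peaks or bases that the setting itself fixes. The shares of all genes and regions that were SMC-only, non-SMC-only or open in all 4 lines were given above for all listed peaks and the 2 kb window. Counts at other settings are not read against them.

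Leaving out a library lets its type rest on the other line. The difference in the share of open members then ranged from -4.39 points (without non-SMC 2) to 2.63 points (without non-SMC 1), and was 0 without SMC 1 and -1.75 without SMC 2. The SMC-only members numbered 4 to 6 (6 without SMC 1, 5 without SMC 2), the non-SMC-only members 1 to 9 (5 without non-SMC 1, 9 without non-SMC 2), and the members open in all remaining lines 1 to 2 (2 without either non-SMC line). The SMC-only regions numbered 9 to 37 (37 without SMC 1, 26 without SMC 2), the non-SMC-only regions 9 to 43 (42 without non-SMC 1, 43 without non-SMC 2), and the log2 ratio of peaks ranged from -0.55 (without SMC 2) to -0.11 (without SMC 1). Taking means over lines with the same number, as a replicate block would, gave -0.88 points for the share and -0.33 for the log2 ratio of peaks, and changed no direction. No blocked test was made. Lines of different types with the same number overlapped in their peaks within the cluster with a Jaccard index of 0.114 and 0.108, and those with different numbers with 0.0940 and 0.130.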
